A study of Rattus norvegicus with 12 samples.

Results

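Kainate receptors are glutamate-gated cation channels of neurons, and in the cortex they lie both at synapses that receive glutamate and at nerve endings, where they tune transmitter release. Grik1, Grik2 and Grik3 encode low-affinity subunits that can form channels by themselves, while Grik4 and Grik5 encode high-affinity subunits that need a low-affinity partner. Neto1 and Neto2 encode membrane proteins with CUB domains that join these channels as auxiliary subunits and slow their closing. These 7 genes, of 14218 genes with a symbol on the array, were described in the parietal cortex of rats at 2 ages. They were found by the platform's gene symbols, which gave 8 probe sets of 31099, with 2 for Neto2 and 1 for each other gene. The family was chosen by the age difference and the link to maze performance of Neto2 on these same arrays, so all values of Neto2 by age are a description and were not tested. The other 6 genes belong to it by name.

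The arrays came from 6 aged and 6 young male F344 (Fischer) rats, an inbred strain often used in aging research, with 1 array per rat and no genetic change or drug in either group. All rats carried a telemetry implant and had been trained and tested in the Morris water maze before the cortex was taken. The labels give 21 to 23 months for aged rats and 3 to 5 months for young rats, and the study's methods give 21 and 3 months. Titles of the samples say parietal cortex, but their tissue entry says frontal cortex. Slc17a7, which loads glutamate into vesicles and marks cortical excitatory neurons, was read at 3893 to 4962 in aged rats and 4379 to 4774 in young rats, and no marker used here tells parietal from frontal cortex. A probe set is a group of short probes against 1 part of a transcript, and its signal is a linear intensity. Since probes differ in how well they bind, signals were compared between rats and never between probe sets. For gene lists the signals of several probe sets were summed in each rat, and the brightest weigh most in such a sum. The median signal per array was 167.9 to 194.3 in aged rats and 161.6 to 171.9 in young rats, with aged rat 6 highest. The numbers in the sample codes form a lower series (4 aged and 3 young rats) and a higher series (2 aged and 3 young rats), and the labels do not say what they stand for.

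Both auxiliary subunits are shown first by the sequence that lies before their genes, because they are the closest relatives in the family and the base composition of these stretches differs. The lines give the RefSeq sequence of the rat genome build GRCr8 on the plus strand, from 250 to 51 bases before the start of each gene, with Neto2 at chr19:37517305-37517504 and Neto1 at chr18:81910203-81910402. Capitals mark GGGCGG, the GC box bound by Sp factors, which was searched on both strands, and overlapping matches were counted.
Neto2: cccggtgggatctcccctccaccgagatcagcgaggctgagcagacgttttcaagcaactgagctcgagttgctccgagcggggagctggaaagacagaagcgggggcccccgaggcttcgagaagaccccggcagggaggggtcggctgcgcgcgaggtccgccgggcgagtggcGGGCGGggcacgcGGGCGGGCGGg
Neto1: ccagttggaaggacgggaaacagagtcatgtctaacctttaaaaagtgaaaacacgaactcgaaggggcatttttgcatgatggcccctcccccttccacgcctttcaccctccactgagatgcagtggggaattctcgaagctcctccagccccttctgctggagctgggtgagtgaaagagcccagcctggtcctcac

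The Neto2 stretch held 3 GC boxes and 24 CpG dinucleotides, and the Neto1 stretch held 0 GC boxes and 5 CpG dinucleotides. Over the whole window of 300 bases, from 250 before to 50 after the start, Neto2 had 41 CpG dinucleotides at a GC content of 74.0%. Of 33469 rat promoter windows of this length, 2.8% held at least as many, and the median was 7. Neto1 had 13 in its window, a number that 35.3% of the windows reached. Grik3 was the other CpG-rich member, with 49 CpG dinucleotides and 6 GC boxes, and Grik4 had the fewest, with 4 CpG dinucleotides and 0 GC boxes. At least 1 GC box lay in the windows of Grik3, Grik5, Neto1 and Neto2, against 33.1% of all windows. No member window held TATAAA, the TATA box, which 14.2% of all windows held on either strand. A match of letters is a description of the window and not a bound site.

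Every probe set of Neto2 gave a lower mean signal in the aged cortex, and of the other 6 genes, which were tested, none passed the test for age. By the platform probe set 1393729_at the signal of Neto2 averaged 579 ± 43.9 in aged rats and 661 ± 40.1 in young rats (SD, n = 6 each). By the other, 1384904_at, it averaged 288 ± 15.0 in aged rats and 347 ± 35.8 in young rats (SD, n = 6 each). On the log2 scale the differences correspond to signals 12.5% lower in aged rats by 1393729_at and 16.8% lower by 1384904_at. In a bulk sample, fewer cells that make Neto2 and less Neto2 RNA per cell cannot be told apart.

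In single rats, 1384904_at read Neto2 at 280.1, 285, 293, 315, 270.5 and 285 in aged rats 1 to 6, against 304, 328, 379, 350.5, 323 and 398 in young rats 1 to 6. Aged rat 4 was the only aged rat within the young range, and 5 of 6 aged rats lay below every young rat. With 1393729_at the signals were 573, 528, 594, 649, 594 and 538 in aged rats 1 to 6, against 604, 630, 702, 679, 651 and 703 in young rats 1 to 6. Again aged rat 4 alone reached into the young range, and the other 5 aged rats lay below it. All 6 aged rats lay below the young median by either probe set. Of 28193 probe sets tested for age, 6.27% had a log2 difference at least as low as that of 1384904_at (-0.27) and 9.50% one at least as low as that of 1393729_at (-0.19), so differences of this size were not rare on these arrays.

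The study drew its own Neto2 value from another probe set, 1392999_at, which its supplement names Neto2 and which has no gene in the platform annotation used here. It is therefore not among the 8 probe sets, and its values stand here as a description. It averaged 1202 ± 125 in aged rats and 1473 ± 114 in young rats (SD, n = 6 each), a log2 difference of -0.30, or 18.6% lower in aged rats. The signals were 1011, 1113, 1373, 1236, 1260 and 1219 in aged rats 1 to 6, against 1376, 1415, 1465, 1485, 1690 and 1407 in young rats 1 to 6. No aged rat reached the young range, but the gap was narrow, since the highest aged value was 1373 and the lowest young value 1376. The same lack of overlap was seen in 0.192% of the 28193 probe sets. Since this contrast chose the gene, nothing is read from that share.

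**Figure D1:**
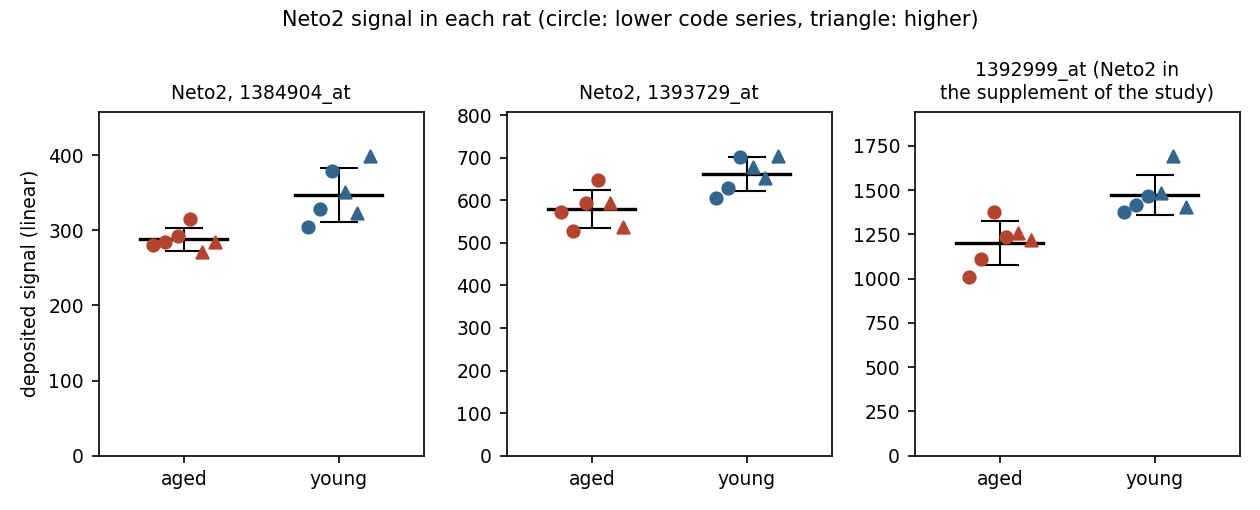
Deposited signal (y axis, linear, from 0) of each of the 3 probe sets named Neto2, with 1 point per rat for 6 aged (left) and 6 young rats (right), a line at each mean and bars of 1 SD. Circles are rats of the lower code series and triangles rats of the higher series. Aged rat 4 lies within the young range in the left and the middle panel, and no aged rat does in the right panel, where the groups nearly touch at 1373 and 1376.

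For the other 6 genes no age difference was detected. Of their 6 probe sets, 0 passed at an adjusted p under 0.05 (limma, Benjamini-Hochberg over 28193 probe sets, of which 0.0248% passed), and 0 had an unadjusted p under 0.05, as 7.8% of all probe sets did in either direction. At the unadjusted threshold of 0.01 that the methods use, 0 of the 6 passed with limma and 0 with the methods' t-test, against 1.63% of all probe sets higher and 0.514% lower in aged rats. Of the 6 log2 differences, 5 were above 0 and 1 below, with a median of 0.07, against a median of 0.03 over all probe sets tested. With both probe sets of Neto2 included the median was 0.05, but it was -0.03 with quantile normalization and -0.02 with median centring. The medians over all probe sets were -0.005 and -0.04 under these scalings. When either aged rat 5 or aged rat 6 was left out, the median of the members was -0.03, so it has no stable direction.

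Among the low-affinity subunits, Grik1, which is prominent in cortical interneurons, had the smallest p of the 6. Its probe set 1387309_a_at read 200.1, 179, 147, 161, 175 and 180.1 in aged rats 1 to 6, against 169, 148, 136, 145, 155 and 183 in young rats 1 to 6. The groups overlapped, with 5 of 6 aged rats above the young median but only aged rat 1 above every young rat. The log2 difference was 0.16 (standard error 0.094, 95% interval -0.05 to 0.36, adjusted p = 0.728 from limma).

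Grik2, the subunit found most widely in the forebrain, had signals of 398, 439, 527, 408, 458 and 482 in aged rats 1 to 6, against 418, 466, 565, 359, 439 and 572 in young rats 1 to 6. All 6 aged rats lay within the young range. Its log2 difference was -0.04 (95% interval -0.31 to 0.22, adjusted p = 0.971 from limma), and the sign turned to 0.01 without young rat 3 and to 0.02 without young rat 6. The interval reaches from a signal 0.806-fold to one 1.17-fold that of young rats, so a change within these bounds was not excluded with 6 rats per group.

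Grik3, the low-affinity subunit that responds only to high glutamate, varied most of the members among aged rats. It was the only member with signals under the cutoff used to choose probe sets for testing. Its signal was 52.5, 44.2, 15.2, 31.6, 48.9 and 16.3 in aged rats 1 to 6, against 24.7, 39.9, 27.8, 30.4, 20.4 and 41.3 in young rats 1 to 6. The aged rats surrounded the young, with 3 above and 2 below every young rat, and aged rats 3 and 6 lay under that cutoff, a signal of 19.7. The coefficient of variation was 47.0% in aged and 27.1% in young rats. The log2 difference was 0.06 (95% interval -0.69 to 0.80, adjusted p = 0.988 from limma), so neither direction was excluded. It was -0.13 with quantile normalization, -0.01 with median centring, and between -0.09 and -0.05 when aged rat 1, 2 or 5 or young rat 5 was left out.

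The high-affinity subunits also overlapped between the ages. Grik4, best known from hippocampal neurons, had signals of 245, 176, 206, 274, 185 and 230.0 in aged rats 1 to 6, against 212, 159.6, 181, 189, 154 and 254 in young rats 1 to 6. Only aged rat 4 lay above every young rat, while 5 of 6 aged rats lay above the young median. Its log2 difference of 0.20 was the highest of the family (standard error 0.14, 95% interval -0.12 to 0.52, adjusted p = 0.786 from limma).

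Grik5, the high-affinity subunit of most brain kainate receptors, had signals of 422, 482, 573, 422, 504 and 615 in aged rats 1 to 6, against 487, 498, 417, 432, 646 and 465 in young rats 1 to 6. All 6 aged rats lay within the young range, which young rat 5 widened at its upper end. The log2 difference was 0.04 (95% interval -0.24 to 0.32, adjusted p = 0.979 from limma). It was -0.03 with median centring, -0.03 when aged rat 6 was left out, and just below 0 with array weights or when aged rat 3 or young rat 3 was left out, so it has no stable sign.

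Neto1, the auxiliary subunit that is closest to Neto2, had signals of 131, 69.2, 135, 111, 188 and 208 in aged rats 1 to 6, against 104, 124, 89.5, 108, 177 and 165 in young rats 1 to 6. The aged range enclosed the young one, with 2 aged rats above and 1 below every young rat. The log2 difference was 0.09 (standard error 0.27, 95% interval -0.49 to 0.67, adjusted p = 0.974 from limma), and it turned below 0 with quantile normalization (-0.003) and when aged rat 6 (-0.04), aged rat 5 (-0.01) or young rat 3 (-0.005) was left out. Its interval holds the differences seen for Neto2, so a decline of the same size in Neto1 was not excluded here. Whether the age differences of Neto1 and Neto2 differ was not tested, because that contrast chose Neto2.

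**Figure D2:**
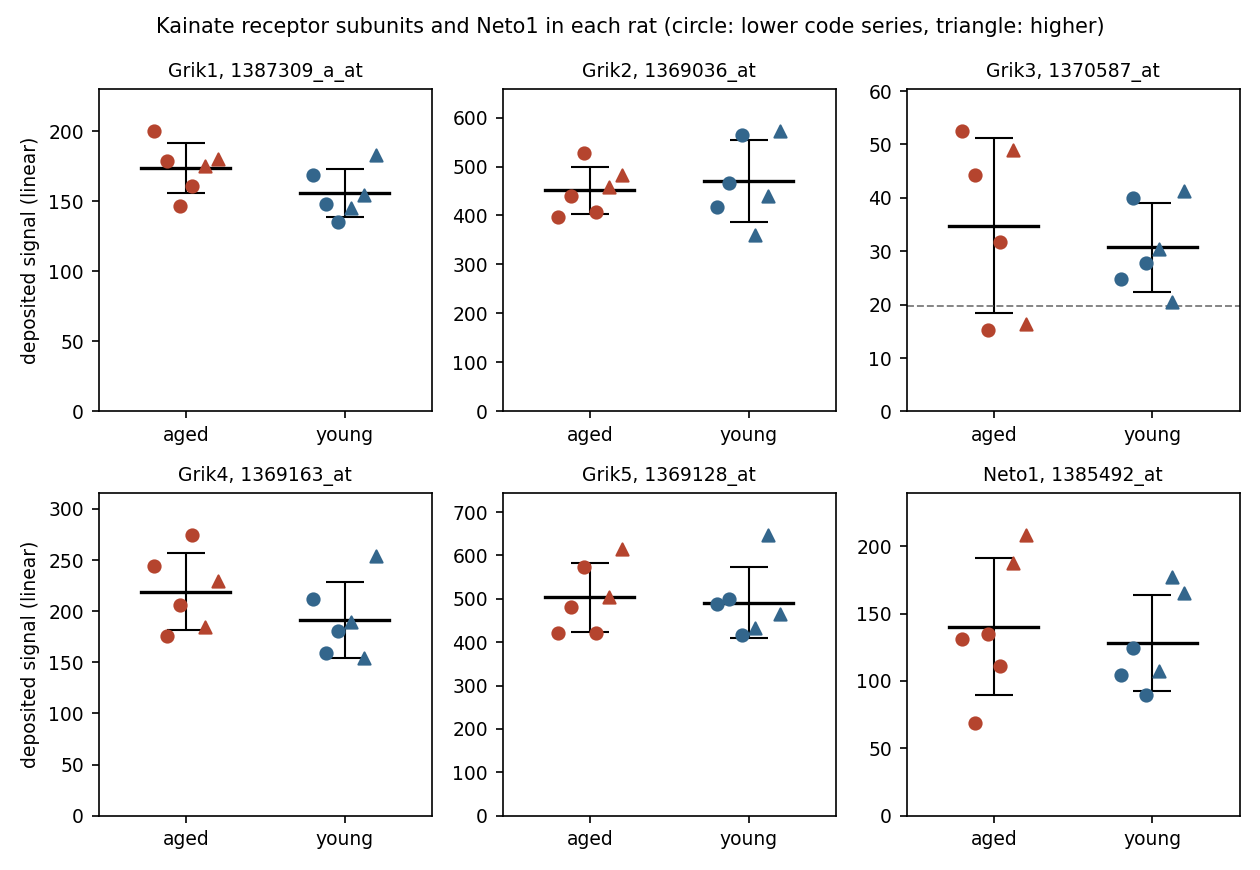
Deposited signal (y axis, linear, from 0) of Grik1 to Grik5 and Neto1, with 1 point per rat for 6 aged (left) and 6 young rats (right), a line at each mean and bars of 1 SD. Circles are rats of the lower and triangles rats of the higher code series, and the dashed line for Grik3 is the cutoff at 19.7. In each panel the ages overlap.

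**Figure D3:**
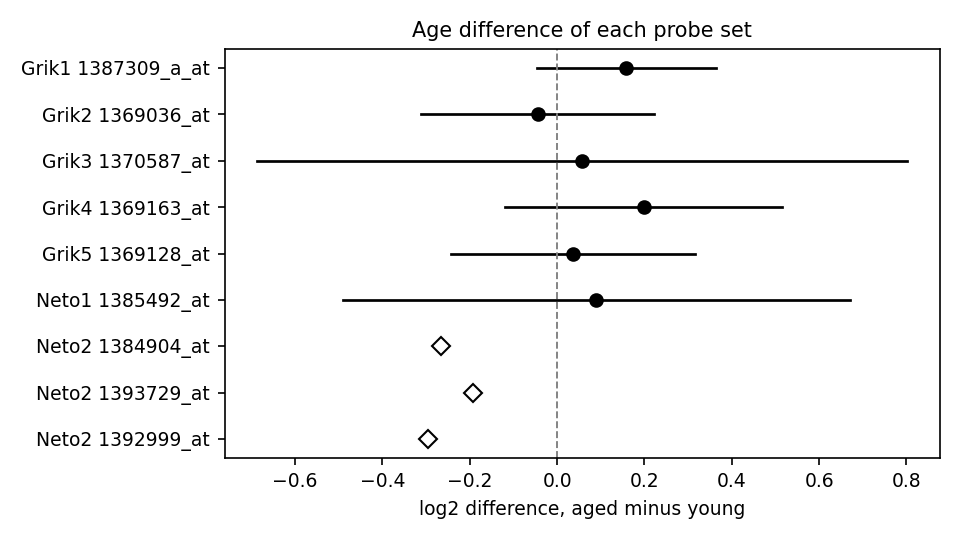
log2 difference, aged minus young (x axis), of each probe set (y axis). Filled circles are tested probe sets with their 95% intervals from limma, all of which include 0. Open diamonds are the 3 probe sets of Neto2 without an interval, at -0.27, -0.19 and -0.30, since they were not tested.

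The sample code series separated the rats more clearly for Neto1 than age did. Neto1 was read at 188 and 208 in the 2 aged rats and at 108 to 177 in the 3 young rats of the higher series, against 69.2 to 135 in the 4 aged rats and 89.5 to 124 in the 3 young rats of the lower series. With age in the model, the higher series had a log2 difference of 0.66 over the lower (standard error 0.20, adjusted p = 0.274 from limma), which did not pass, and 0 of 28193 probe sets passed for the series. The age difference of Neto1 was 0.04 within the lower series, 0.43 within the higher series and 0.20 with the series as a block, 0 of which passed the test.

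Within each series Neto2 was lower in aged rats. The log2 difference was -0.14 within the lower and -0.26 within the higher series by 1393729_at, and -0.20 and -0.36 by 1384904_at in the same order. By 1392999_at it was -0.27 and -0.30. In the higher series both aged rats lay below the 3 young rats by all 3 probe sets, and in the lower series 3 of 4 aged rats did by either platform probe set. The share of all probe sets with such an order within a series was not counted. The same rats and the same contrast chose the gene, so nothing is read from these counts. For the 6 other genes the interaction of age with series, tested across 28193 probe sets, had an adjusted p = 0.999 in each case (limma).

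The 2 platform probe sets of Neto2 varied together, though they did not order the aged rats alike. Aged rat 5 was the lowest aged rat by 1384904_at and aged rat 2 by 1393729_at. After the mean of each age group was taken away, the 2 had a Pearson r of 0.73 over the 12 arrays (Spearman's rho 0.69). It was 0.58 among aged and 0.95 among young rats. Between platform probe sets of different members r lay between -0.65 and 0.59. With 1392999_at included as Neto2 it lay between -0.66 and 0.62. Among 28193 probe sets, 1384904_at ranked 118 by likeness to 1393729_at. The probe set 1392999_at did not rank near them, with an r of 0.30 to 1393729_at (rank 4378) and 0.02 to 1384904_at. So the 3 probe sets share the age difference, but within an age 1392999_at followed the other 2 less closely than they followed each other.

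Of the other genes, Grik4 was nearest to 1393729_at with an r of 0.42 (rank 2225), followed by Grik2 at 0.20 and Grik3 at 0.10. With 1384904_at the nearest were the same, Grik4 at 0.51 and Grik2 at 0.48. With 1392999_at they were not, since Grik5 was nearest at 0.62, followed by Neto1 at 0.39 and Grik2 at 0.22. Grik4 had -0.33 with it, Grik1 -0.63 and Grik3 -0.66, so the nearest gene depended on the probe set of Neto2. To 1393729_at, Neto1 had 0.09, while Grik1 had -0.33 and Grik5 -0.43. The lowest r among the receptor subunits was Grik3 with Grik5 at -0.65, and Neto1 was nearest to Grik5 at 0.59. All these r values rest on the same 12 arrays, which share scaling and tissue composition, and they are given with no test.

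**Figure D4:**
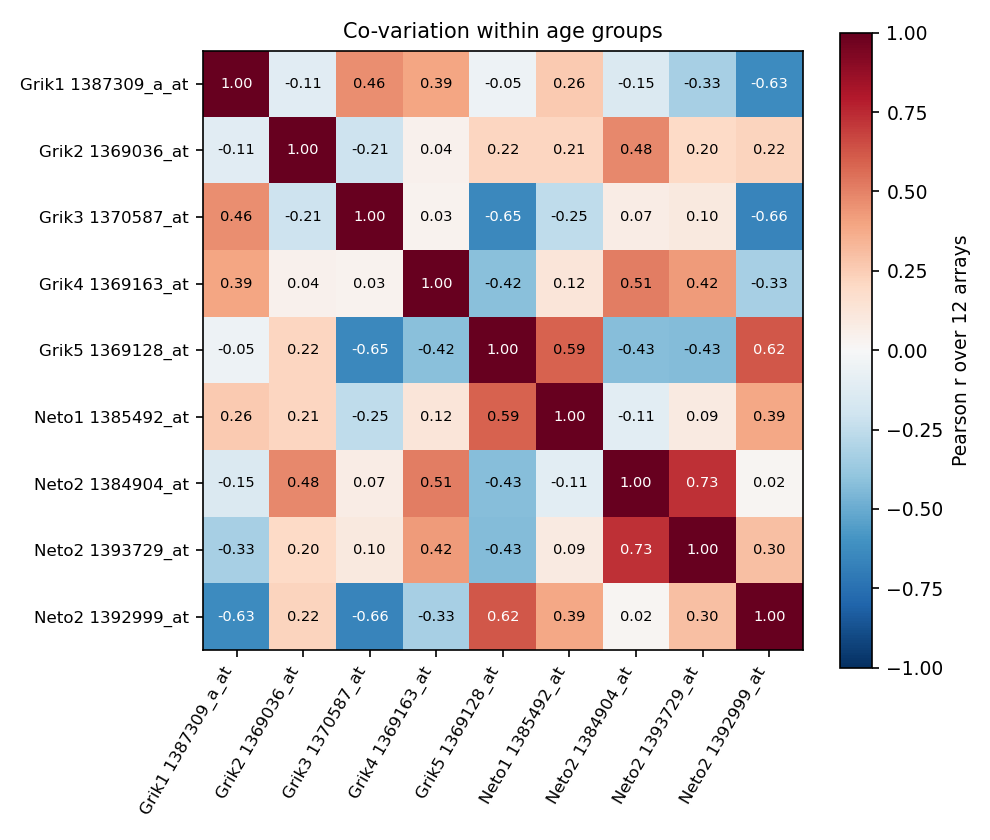
Pearson r over 12 arrays between the log2 signals of the 8 member probe sets and 1392999_at, after the mean of each age group was taken away (colour and number in each cell). The pair of platform probe sets for Neto2 stands at 0.73, and 1392999_at has 0.30 and 0.02 with them.

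The named genes whose signals followed 1393729_at most closely by the same measure were not receptor genes. They were Gmppb, an enzyme that makes GDP-mannose for glycosylation (r = 0.90), Osgin2 (0.89), the zinc finger factor Zfp148 (0.89), Pank4, a pantothenate kinase family member (0.89), Vps36, an ESCRT subunit of endosomal sorting (0.87), and Mrps5, a mitochondrial ribosomal protein (0.87), over 12 arrays. These 6 were picked as the highest r among named genes of 28193 probe sets, so high values follow from the choice. No such ranking was made for the other probe sets of Neto2. With Spearman's rho 3 of these 6 were again among the first 6, and with quantile normalization 4. Vps36 averaged 288 ± 28.9 in aged rats and 330 ± 20.1 in young rats (SD, n = 6 each), a log2 difference of -0.20 (adjusted p = 0.589 from limma). The differences of the other 5 genes lay between -0.15 and -0.05, and 0 of the 6 passed.

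Among genes that bind, move or modify kainate receptors none passed the test. Of 34 such partners listed, 29 had a probe set with their symbol and were tested, and 11 were higher and 18 lower in aged rats, with a median log2 difference of -0.02, against 0.03 over all probe sets. With median centring 5 were higher and 24 lower (median -0.09), but that scaling also moved the median over all probe sets to -0.04. None passed at an adjusted p under 0.05 with limma, and 1 of 29 had an unadjusted p under 0.05, against 7.8% of all probe sets. That gene was Dlg3, the scaffold SAP102 of glutamate synapses, and its unadjusted p of 0.00927 (limma) also met the threshold of 0.01. Of all probe sets, 0.514% met that threshold as lower in aged rats. Dlg3 averaged 1127 ± 125 in aged rats and 1331 ± 70.0 in young rats (SD, n = 6 each), a log2 difference of -0.25 (standard error 0.079, adjusted p = 0.464). The scaffold kinase Cask had -0.15 (adjusted p = 0.657), the calcium-dependent kinase Camk2a -0.39 (adjusted p = 0.677) and the G protein subunit Gnao1 -0.13 (adjusted p = 0.731). Slc12a5, the chloride transporter that binds Neto2, averaged 8414 ± 754 in aged rats and 8548 ± 732 in young rats (SD, n = 6 each), a log2 difference of -0.02. It was named for that link and not by its p-value.

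The related receptor families showed the same lack of called genes. Of 12 subunits of AMPA, NMDA and delta receptors tested, 3 were higher and 9 lower in aged rats (median log2 difference -0.03), and of 9 auxiliary subunits of AMPA receptors 3 were higher and 6 lower (median -0.13). With limma 0 of these 21 genes passed at an adjusted p under 0.05 (0.0248% of all probe sets), and 0 had an unadjusted p under 0.05 (7.8% of all probe sets).

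Markers of several cell types lay mostly to 1 side of 0 beside these values, though none passed the test. Over all probe sets tested, 42.3% were lower in aged rats. Of 11 excitatory neuron genes 8 were lower in aged rats, and their summed signal was 20603 to 22558 in aged rats and 21669 to 25780 in young rats. Of 11 interneuron genes 9 were lower, with sums of 25899 to 35276 in aged rats and 29477 to 32638 in young rats. All 10 oligodendrocyte genes tested were higher (sums 35742 to 59046 in aged rats and 34378 to 50712 in young rats), as were 11 of 12 microglial genes (sums 5529 to 10804 in aged rats and 4823 to 6570 in young rats) and all 9 endothelial genes (sums 4798 to 6468 in aged rats and 3955 to 4983 in young rats). With quantile normalization 9 excitatory neuron and 9 interneuron genes were lower, and with median centring 9 and 10, while 9 of 10 oligodendrocyte genes were higher with median centring. The other counts were the same under both scalings. Over all probe sets the median log2 difference was 0.03 as deposited, -0.005 with quantile normalization and -0.04 with median centring. Part of the shift in these counts thus goes with the scaling of all probe sets. None of these genes passed at an adjusted p under 0.05 with limma, while 0 neuronal, 0 oligodendrocyte, 2 microglial and 2 endothelial genes had an unadjusted p under 0.05 in either direction, against 7.8% of all probe sets. Within age groups the r of each summed list with 1393729_at over 12 arrays was -0.10 for excitatory neurons, 0.23 for interneurons, 0.18 for oligodendrocytes, -0.01 for microglia and -0.19 for endothelium, and it was 0.41 for the kainate receptor partners. Each of these r values leans on the brightest probe sets of its list. In further lists, 6 of 7 oligodendrocyte progenitor, 7 of 9 astrocyte and 6 of 7 choroid plexus genes were higher in aged rats. Of the astrocyte genes only 4 were higher with median centring. Of the hippocampal genes 4 of 6 were lower, and of the striatal genes 4 of 7. The part of any list in the age difference of Neto2 was not tested.

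**Figure D5:**
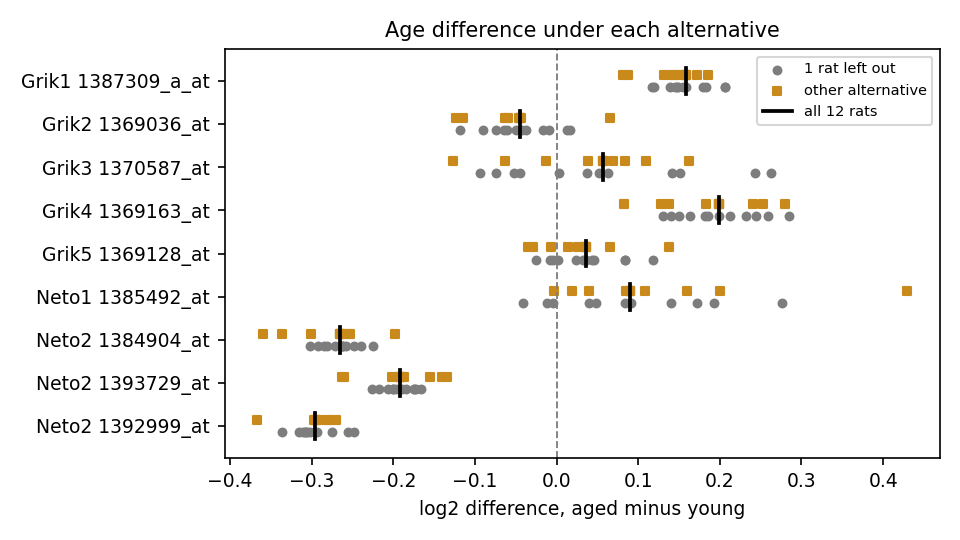
log2 difference, aged minus young (x axis), of each probe set (y axis) with all 12 rats (black line), with 1 rat left out (grey circles) and under the other alternatives (orange squares). The points of Neto2 lie between -0.37 and -0.13, those of Grik1 and Grik4 above 0, and those of Grik2, Grik3, Grik5 and Neto1 on both sides of 0.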

How the data were processed

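RNA of 1 cortex sample per rat was labelled and hybridised to Affymetrix RAE230 2.0 arrays, 6 aged and 6 young. The values that the authors deposited are linear signal intensities, and every array had a mean of 500.1 after 2% was trimmed at each end. MAS5, GCRMA and R 2.7.1 appear in the submitters' processing notes, while the paper's methods give gcRMA and a scaling target of 500. The order of steps is not given in the sources used here. As the design assumed log2 values, log2 of the deposited intensity was taken, with no further normalization and no pseudocount.

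Probe sets above 4.3 (a signal of 19.7) on at least 3 arrays, 28193 of 31099, were tested for age with limma 3.58.1 in R 4.3.3 (lmFit and eBayes, two-sided, Benjamini-Hochberg over all of them). All 8 member probe sets passed, Grik3 on 10 arrays and the rest on 12. The study set the cutoff of 4.3 on its gcRMA values, and it was carried over here to log2 of the deposited intensities. On these, 83.3% to 87.1% of probe sets per array lay above it, so passing it does not show that a probe set was readable. Symbols came from the platform table, updated by gene ID for 20764 of 20832 probe sets with 1 symbol. List genes were represented by their brightest probe set. The members, gene lists and tests were chosen with earlier results of these data known. Named are all members, the 6 genes most like Neto2 by r, and the 4 partners with the smallest p. The number of arrays limits the precision, and the labels name separate rats as subjects. The steps were tested on simulated data. Python 3.11.15 and matplotlib 3.10.9 drew the figures.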

Additional observations from a re-analysis of the deposited data

Results flagged for a closer look

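In 2 of 18 groups of 6 rats (9 probe sets at 2 ages), 1 rat stood far from the other 5 by the measure of Dixon's test, the gap to the nearest rat over the range of the group, at its 95% critical value. Chance gives about 1 in 20 such groups. Young rat 5 had the highest Grik5 signal, 646, where the other young rats had at most 498. The same rat had the highest signal of 1392999_at, 1690, where the other young rats had at most 1485. By both platform probe sets of Neto2 this rat lay among the other young rats.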

How the results depend on the processing

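The 3 probe sets of Neto2 stayed below 0 under every alternative run, between -0.37 and -0.13. The smallest size was that of 1393729_at without aged rats 2 and 6, against -0.19 with all rats. These 2 rats had the lowest aged signals of that probe set, 528 and 538. Their arrays also had the lowest array weights, 0.517 and 0.485, where the others had 0.892 to 1.51. Each alternative reuses arrays on which this contrast chose the gene, so the steady sign is a description and no support for the difference. Grik1 and Grik4 stayed above 0 in 26 of 26 alternatives, but their size ranged from 0.081 (quantile normalization) to 0.21 for Grik1, which was 0.088 with median centring, and from 0.082 (higher series) to 0.28 for Grik4, which was 0.13 with median centring and without aged rat 4. In the alternatives 0 of the 6 other genes passed. Signs turned for Grik2 in the higher code series alone (0.066), for Grik3 with quantile normalization (-0.13), median centring (-0.013) and the higher series (-0.063), for Grik5 with median centring (-0.035), array weights (-0.0066) and without aged rats 2 and 6 (-0.029), and for Neto1 with quantile normalization (-0.0031). With 1 rat left out they ranged from -0.12 to 0.016 for Grik2, -0.094 to 0.26 for Grik3, -0.025 to 0.12 for Grik5 and -0.042 to 0.28 for Neto1. Grik3 gave no value with the cutoff on all arrays, and 1384904_at and 1392999_at none with 1 probe set per gene.

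Over all probe sets, 7 passed the adjusted threshold, against 4 with quantile normalization, 3 with median centring, 2 with an intensity trend and robust variances, 2 without aged rats 2 and 6, 0 in either series alone and 0 to 10 with 1 rat left out. With the subject number as a replicate block it was 2. Same-numbered rats deviated together by r of -0.03 to 0.11 over probe sets, and 2 of 6 aged rats matched their own number best. Whether same-numbered rats share more than a number was not tested. The subject block lowered the unadjusted p of Grik1 from 0.117 to 0.0447 (limma, adjusted p = 0.51 with the block). The unadjusted p was also lower for Grik2, Grik4 and Neto1, and higher for Grik3 and Grik5. With this block, 618 probe sets were higher and 137 lower in aged rats at an unadjusted p up to 0.01. At the unadjusted threshold of 0.01, 460 were higher and 145 lower in aged rats, against 266 and 221 with quantile normalization, 254 and 341 with median centring, 254 and 80 with 1 probe set per gene, 223 and 63 in the lower series, 263 and 82 in the higher series, and 88 to 199 lower with 1 rat left out. The rank correlation shared 3 of the 6 genes most like Neto2. The cause of these shifts was not tested.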
